A study of Homo sapiens with 4 samples.

Results

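The genes described here are 8 genes of hyaluronan biology, the receptors HMMR and CD44, the synthases HAS1, HAS2 and HAS3, and the degrading enzymes HYAL1, HYAL2 and CEMIP. They were found by gene symbol among the 60617 genes of the count table, and all 8 were present. The set was chosen by a measured value, the CPM of HMMR in the study's only contrast, where HMMR stood among the largest decreases; the other 7 joined by function. The differences of the 8 genes between the groups are therefore given as a description, with no test.

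Both groups were SCC13 cells, an established human line of cutaneous squamous cell carcinoma, labelled WT and grown in CnT-07 medium. The control group was infected with a lentivirus carrying a scrambled shRNA, and the knockdown group with one carrying an shRNA that targets CELF2, an RNA-binding protein of splicing and mRNA stability. The labels do not say whether both knockdown libraries carried the same shRNA sequence. PolyA RNA was sequenced from 2 libraries in each group, with 17649090 to 27898889 counts per library. Nothing in the labels says that the replicates are separate cultures, so the spread behind each p-value is that of these libraries and may be technical. All cells belong to 1 line.

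The targeted gene does not check the labels. For CELF2 a single library, control replicate 1, held 1 count, and the other 3 held 0, so a loss of its mRNA was not detectable at this depth. All 8 keratinocyte markers examined, KRT5, KRT14 and TP63 among them, were above 1 CPM (counts scaled to the depth of each library, with TMM factors) in every library, and their summed level was 11601 and 19099 CPM in the 2 controls and 26645 and 18946 CPM in the 2 knockdown libraries, which overlap. Of 9 fibroblast markers, 5 (COL1A2, COL3A1, DCN, LUM and THY1) had 0 counts in all libraries, and the list summed to 35.0 to 37.1 CPM in control cells and 37.1 to 65.4 CPM in knockdown cells, nearly all from COL1A1 and FAP. PTPRC, the pan-leukocyte marker, had 0 counts in all libraries.

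Hyaluronan is a very long, unsulfated polysaccharide of alternating glucuronic acid and N-acetylglucosamine. HAS enzymes make it at the plasma membrane from UDP-sugars and push it out of the cell, hyaluronidases and CEMIP cut it, and cells bind it through receptors. In the epidermis keratinocytes make much of it, and CD44 is their main receptor for it. HMMR, also called RHAMM, binds hyaluronan at the cell surface but is best known inside the cell, where it binds microtubules of the mitotic spindle, and its mRNA is made mainly late in the cell cycle.

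The stretch before the start of HMMR is shown first, since HMMR had the largest difference of the set and its closest companions over the 4 libraries were cell cycle genes. The windows are the 250 bases before the transcript start in RefSeq (GRCh38.p14), and were taken for 7 of the 8 genes. No HAS2 window was examined, so its start is not described. The HMMR window is set beside those of CD44 and HAS3. CD44 is the receptor that was level between the groups, and HAS3 the only synthase with more than a stray count. Capitals mark every match, on either strand, to TTTGAA (the letters of a cell cycle homology region, or CHR, through which the DREAM and MuvB complexes act on late cell cycle genes), CCAAT (bound by NF-Y), GGGCGG (the GC box, bound by SP1), CACGTG (the E-box, bound by MYC and USF proteins) and TGANTCA (bound by AP-1).
HMMR, chr5:163460382-163460631, plus strand: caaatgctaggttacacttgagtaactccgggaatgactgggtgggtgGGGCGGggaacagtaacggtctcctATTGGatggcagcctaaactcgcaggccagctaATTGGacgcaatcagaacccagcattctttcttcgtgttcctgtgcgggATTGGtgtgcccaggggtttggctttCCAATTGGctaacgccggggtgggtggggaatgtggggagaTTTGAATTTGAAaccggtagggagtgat
HAS3, chr16:69107290-69107539, plus strand: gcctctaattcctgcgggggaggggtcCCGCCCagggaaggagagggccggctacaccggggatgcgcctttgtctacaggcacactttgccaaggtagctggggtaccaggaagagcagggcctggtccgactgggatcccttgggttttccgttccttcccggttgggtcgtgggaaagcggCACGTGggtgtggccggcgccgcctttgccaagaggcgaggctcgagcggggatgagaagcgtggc
CD44, chr11:35138921-35139170, plus strand: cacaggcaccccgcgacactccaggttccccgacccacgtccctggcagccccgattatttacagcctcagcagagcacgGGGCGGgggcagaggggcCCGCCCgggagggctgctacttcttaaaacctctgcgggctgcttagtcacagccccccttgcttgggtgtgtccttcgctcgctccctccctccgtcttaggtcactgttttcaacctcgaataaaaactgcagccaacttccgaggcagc

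The HMMR window held 2 TTTGAA matches side by side, 28 and 22 bases before the start, and 5 CCAAT matches, of which 2 overlap on opposite strands (69 and 66 bases before the start). The MKI67 window, of the gene whose pattern over the libraries was nearest to that of HMMR, held 2 TTTGAA and 2 CCAAT matches. The windows of the other 4 genes nearest to HMMR in pattern, CDCA3, DEPDC1B, LMNB1 and RRM2, held 0 TTTGAA matches, also at both starts of LMNB1 and of RRM2. The MKI67 matches are shown in a shorter stretch beside those of HMMR.
HMMR, chr5:163460574-163460631, plus strand: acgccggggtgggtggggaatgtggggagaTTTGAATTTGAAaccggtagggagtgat
MKI67, chr10:128126441-128126500, minus strand: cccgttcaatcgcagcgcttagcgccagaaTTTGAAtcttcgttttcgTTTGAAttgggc

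Of the 35116 windows of this length in the RefSeq table, 13.3% held at least 1 TTTGAA and 32.0% at least 1 CCAAT. At least 1 of each stood in 1646 windows, 4.69% of all, and at least 2 of each in 44 windows, 0.125% of all. The cut at 2 follows the HMMR and MKI67 windows themselves, so its share is no test of them. CD44 held 2 GC boxes, HAS3 held 1 GC box and 1 E-box, HAS1 held 1 TTTGAA match, and none of the 5 motifs matched in the HYAL2 window. GC boxes matched in 42.6% of all windows, E-boxes in 6.34% and TGANTCA in 6.57%. The matches are letters in a window and say nothing about what was bound there in these cells. The windows of HMMR, CD44, HAS3 and HYAL1 lie inside the gene spans of GENCODE v29, so starts annotated further upstream were not covered. The HYAL2, CEMIP and HAS1 windows lie partly inside those spans, so the bases before their furthest GENCODE start were covered only in part.

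**Figure D1:**
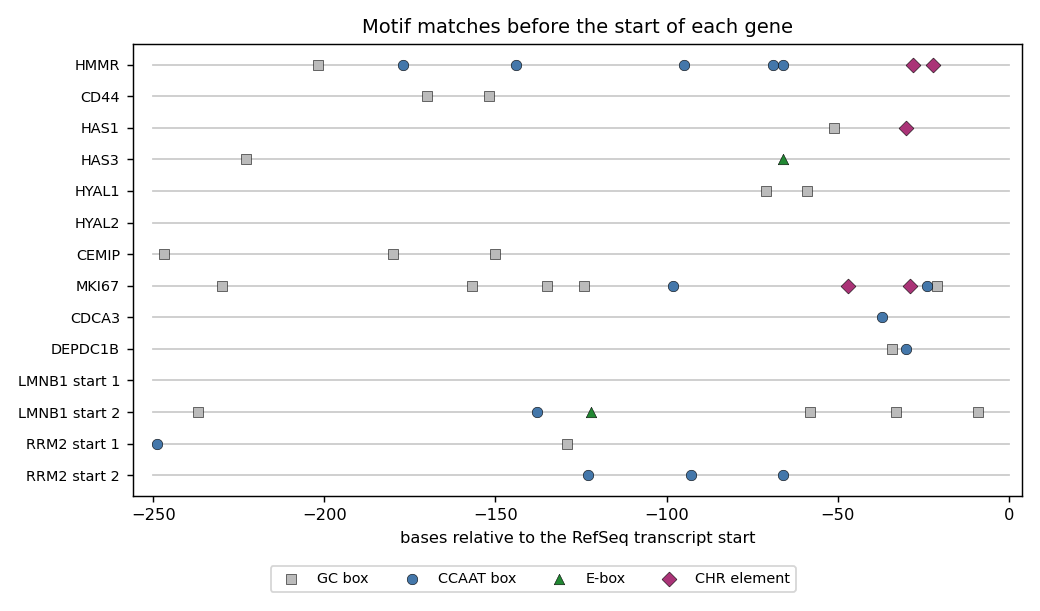
Matches to 4 motifs in the 250 bases before the RefSeq start of 7 hyaluronan genes and of the 5 genes with the pattern most like HMMR; the x axis is the distance from the start in bases, and each symbol is the first base of a match on either strand. HMMR and MKI67 are the genes drawn with 2 TTTGAA matches; LMNB1 and RRM2 have 2 starts in the table, and TGANTCA matched in none of these windows.

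HMMR was 4.60-fold lower in the knockdown than in the controls, and CD44 was level, with a log2 fold change of 0.03. HAS3 lay below both controls in both knockdown libraries, and HYAL1, HYAL2 and CEMIP overlapped between the groups. Across the whole table, 133 of 15170 tested genes changed (0.877%; quasi-likelihood test of edgeR, adjusted p below 0.05), 92 higher (0.606%) and 41 lower (0.27%). An unadjusted p below 0.05 was found for 3350 genes (22.1%), DESeq2 called 1386 (9.14%) and limma-voom called 0. Of the 8 genes 6 passed the filter on low counts, and 1 of these 6, HMMR, was among the genes called lower. The count was 0 of 6 with limma-voom. With DESeq2, with no filter on low counts and with the replicate number as a block, HAS3 was called lower as well as HMMR. These calls are from fits to all libraries, and fits with 1 library left out are not counted here. Since the set was proposed from this contrast, nothing is read from these counts.

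HMMR (ENSG00000072571, GRCh38 chromosome 5, 163460203 to 163491945, plus strand) stood at 63.6 CPM in control replicate 1 and 34.4 CPM in control replicate 2. It stood at 8.97 CPM in knockdown replicate 1 and 12.3 CPM in knockdown replicate 2. Both knockdown libraries were below both controls, and the controls themselves lay far apart. The means were 49.0 ± 20.7 CPM (SD, n = 2) and 10.6 ± 2.37 CPM (n = 2), a log2 fold change of -2.20 ± 0.33 (SE), or 4.60-fold lower. Of the 15170 tested genes, 25 had a lower log2 fold change than HMMR. Without control replicate 1 the log2 fold change was -1.70, and without knockdown replicate 2 it was -2.46.

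CD44 (ENSG00000026508, chromosome 11, 35138870 to 35232402, plus strand), the cell surface receptor, was by far the most abundant of the set. Its level was 831 CPM in control replicate 1, 831 CPM in control replicate 2, 868 CPM in knockdown replicate 1 and 828 CPM in knockdown replicate 2. The groups overlapped, and 3 of the 4 libraries lay within 3 CPM of each other. The means were 831 ± 0.357 CPM (SD, n = 2) and 848 ± 27.9 CPM (n = 2), with a log2 fold change of 0.03 ± 0.17 (SE). Of all tested genes 94.98% had a larger absolute log2 fold change. GENCODE v29 gives CD44 39 transcripts, 26 of them protein coding, which differ in a run of variable exons. The table holds 1 count per gene, so a shift between the standard and the variant forms of CD44 was not analysed here.

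The ratio of CD44 to HMMR within a library restates the HMMR difference, since CD44 was level between the groups. It was 13.0 and 24.2 CPM of CD44 per CPM of HMMR in control cells and 96.7 and 67.2 in the knockdown libraries.

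Of the 3 synthases only HAS3 was counted beyond 1 stray read. HAS2 (ENSG00000170961, chromosome 8), the synthase best known from dermal fibroblasts and from embryonic tissue, had 0 counts in each library. A count of 0 allows up to 0.107 and 0.178 CPM in the control libraries and 0.148 and 0.126 CPM in knockdown cells, by counting error alone. HAS1 (ENSG00000105509, chromosome 19, 51713112 to 51723994, minus strand) had a single count, in control replicate 2. No fold change is given for either.

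HAS3 (ENSG00000103044, chromosome 16, 69105564 to 69118719, plus strand), a synthase of keratinocytes, stood at 30.8 CPM in control replicate 1 and 17.9 CPM in control replicate 2. It stood at 11.6 CPM in knockdown replicate 1 and 8.50 CPM in knockdown replicate 2. Both knockdown libraries were again below both controls, with control replicate 1 the highest. The means were 24.3 ± 9.11 CPM (SD, n = 2) and 10.1 ± 2.22 CPM (n = 2), and the log2 fold change was -1.28 ± 0.32 (SE), or 2.42-fold lower. Leaving out control replicate 1 gave -0.84, and leaving out control replicate 2 gave -1.60.

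**Figure D2:**
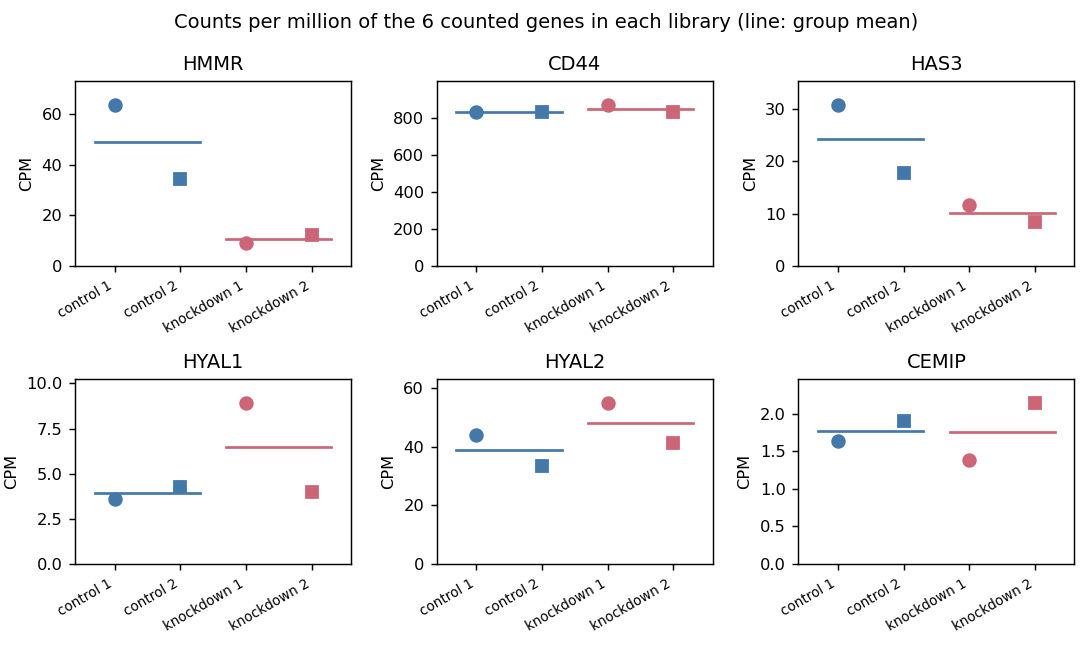
TMM-scaled CPM of the 6 counted genes, 1 panel per gene with its own axis from 0, 1 point per library and a line at each group mean (2 libraries each). HMMR and HAS3 have both knockdown points below both control points; CD44 is level at 828 to 868 CPM, and the high HYAL1 mean of the knockdown rests on replicate 1.

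HYAL2 (ENSG00000068001, chromosome 3, 50317790 to 50322906, minus strand) encodes the hyaluronidase anchored at the cell surface, which cuts long chains into shorter ones. It was the best counted of HYAL1, HYAL2 and CEMIP, with 44.1 and 33.5 CPM in control cells and 54.9 and 41.2 CPM in knockdown cells. The groups overlapped, and the log2 fold change was 0.31 ± 0.22 (SE). It was 0.10 without knockdown replicate 1, 0.51 without control replicate 1, and 0.08 after a correction for GC content. Within a library HYAL2 stood at 1.43 and 1.87 CPM per CPM of HAS3 in control cells and at 4.72 and 4.85 in the knockdown.

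HYAL1 (ENSG00000114378, chromosome 3, 50299889 to 50312381, minus strand), the lysosomal hyaluronidase, lies next to HYAL2 in the same cluster. It had 3.61 and 4.27 CPM in the controls, 8.92 CPM in knockdown replicate 1 and 3.997 CPM in knockdown replicate 2. Only knockdown replicate 1 was high. The log2 fold change was 0.71 ± 0.43 (SE), and without that library it was 0.03. HYAL3, the third gene of the cluster, had 2.89 and 3.32 CPM in control cells and 3.94 and 3.11 CPM in knockdown cells.

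CEMIP (ENSG00000103888, chromosome 15, 80779343 to 80951776, plus strand), a secreted protein that binds hyaluronan and drives its breakdown in skin fibroblasts, was near the lower end of what could be tested. It had 46 and 32 counts in control cells and 28 and 51 counts in knockdown cells, or 1.64, 1.90, 1.38 and 2.15 CPM. The knockdown libraries lay on both sides of the controls, with a log2 fold change of 0.00 ± 0.44 (SE). The exact Poisson 95% interval of its level was 1.37 to 2.17 CPM over both controls and 1.42 to 2.23 CPM over both knockdown libraries, for counting error only. Its relative CEMIP2 (TMEM2), a membrane protein that also cuts hyaluronan, was better counted, with 20.04 and 24.9 CPM in control cells and 14.3 and 24.8 CPM in knockdown cells.

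Compared per length, as CPM per kilobase of annotated exon, the order in the controls was CD44 (83.05), HMMR (12.5 ± 5.26, SD, n = 2), HYAL2 (8.54 ± 1.66), HAS3 (4.60 ± 1.72), HYAL1 (1.26 ± 0.150) and CEMIP (0.232 ± 0.0238). HMMR and HYAL2 overlapped between libraries (8.73 to 16.2 and 7.36 to 9.71 CPM per kilobase); the other neighbours did not. In the knockdown the order was CD44 (84.8), HYAL2 (10.6 ± 2.13), HMMR (2.71 ± 0.603), HYAL1 (2.06 ± 1.11), HAS3 (1.90 ± 0.419) and CEMIP (0.231 ± 0.0710). There HYAL1, with 2.85 and 1.28 CPM per kilobase, overlapped both HMMR and HAS3. CD44 stood above 96.9% of the tested genes with a known length in the controls, HMMR above 74.2% and HAS3 above 51.5%.

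**Figure D3:**
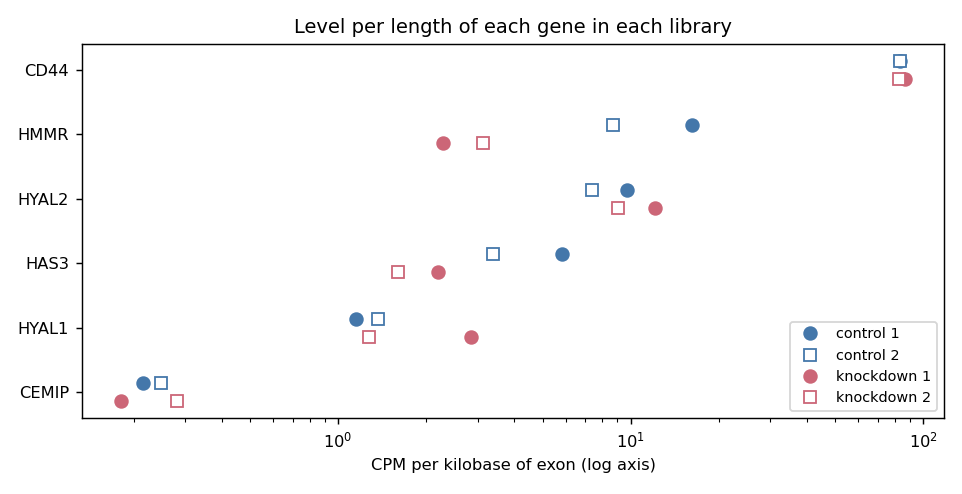
Level per length, as CPM per kilobase of exon on a log axis, of the 6 counted genes in each of the 4 libraries. CD44 lies near 83 CPM per kilobase in all libraries, and HMMR moves from above HYAL2 in the controls (means 12.5 and 8.54) to below it in the knockdown (2.71 and 10.6).

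Some counts may hold reads of overlapping genes, since how strand was treated in counting was not stated in the labels. The exons of HMMR share 113 bases with HMMR-AS1 on the opposite strand and those of CD44 share 84 bases with CD44-AS1, and both antisense genes had 0 counts in all libraries. HAS3 shares 365 bases with CHTF8 on the opposite strand, which had 3 to 12 counts per library. HYAL2 shares 509 bases, 11.2% of its exon length, with TUSC2 on the same strand, which had 48.9 and 53.6 CPM in control cells and 54.0 and 60.0 CPM in knockdown cells. CEMIP shares 224 bases with MESD on the opposite strand (79 CPM in control cells and 54 CPM in knockdown cells on average), a far better counted gene, and 71 bases with AC027808.1, which had 0 counts.

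The pattern of HMMR lay closest to those of cell cycle genes. Among 10918 other genes whose mean reached 5 CPM, the 5 with the pattern most like HMMR were MKI67, CDCA3, DEPDC1B, LMNB1 and RRM2, with root mean square differences of 0.0785, 0.0991, 0.104, 0.114 and 0.133 on the centred log2(CPM + 0.5) scale over the 4 libraries. MKI67 is the Ki-67 proliferation antigen, CDCA3 a trigger of mitotic entry, LMNB1 a lamin of the nuclear envelope and RRM2 a subunit of ribonucleotide reductase. MKI67 stood at 584 and 308 CPM in control cells and at 80.9 and 127 CPM in knockdown cells, the same order of libraries as HMMR. RRM2 and CDCA3 share exons with other genes, so their counts are uncertain. For CD44 the nearest were ZNF384, USP21, GLT8D1, RTN3 and MED24 (differences of 0.00560 to 0.0121), all with log2 fold changes between 0.02 and 0.04. The likeness is over 4 libraries and describes only how the values lie.

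**Figure D4:**
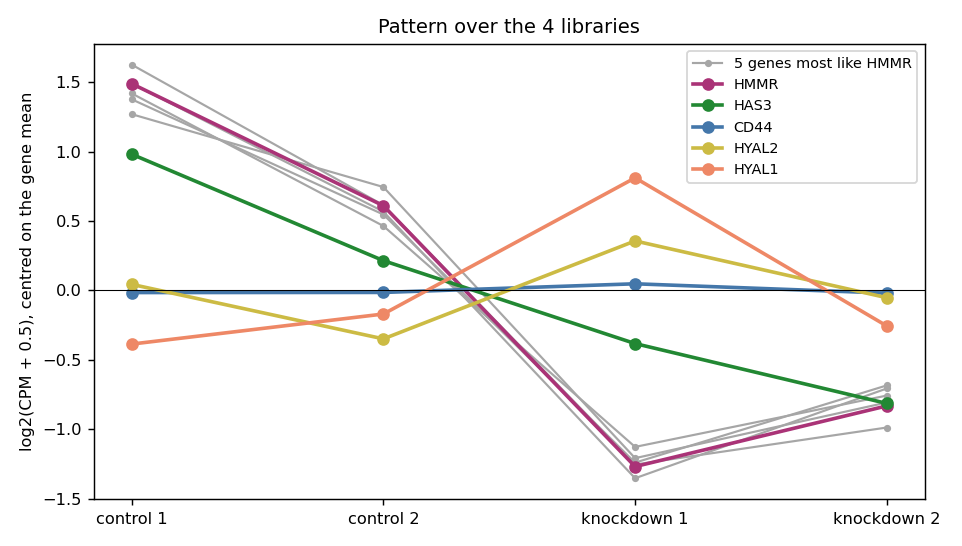
Log2(CPM + 0.5), centred on each gene's mean over the 4 libraries, for HMMR, HAS3, CD44, HYAL1, HYAL2 and the 5 genes most like HMMR (grey); lines only join the points of a gene. HMMR and the grey genes are highest in control replicate 1 and lowest in knockdown replicate 1, while HAS3 is lowest in knockdown replicate 2.

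Genes of mitosis lay on the same side as HMMR. Of 16 on the list 15 were tested; 2 fell (MKI67 and CDC20; 0.27% of all tested genes were called lower) and 13 did not pass. In all 15 the knockdown libraries lay below both controls, against 27.8% of all tested genes, and the median log2 fold change was -1.71, against -0.00356 over all tested genes. The summed level of the list was 5094 and 2590 CPM in control cells and 995 and 1440 CPM in knockdown cells, so control replicate 1, the deepest library, held both the most HMMR and the most mitosis mRNA; the part of that library's depth in these values was not tested. Without control replicate 1 the median was -1.08. With all libraries DESeq2 called 15 of the list, against 9.14% of all tested genes, and limma-voom called 0. Relative to the mean log2 CPM of the 15 genes, HMMR lay at -2.23 and -2.14 in control cells and at -2.71 and -2.76 in the knockdown. In bulk RNA, fewer cells in mitosis and less HMMR mRNA per cell cannot be told apart.

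Of 13 proteins that work with HMMR at the spindle, all had a log2 fold change below 0 and 0 were called (edgeR quasi-likelihood test; 8 at an unadjusted p below 0.05, where 22.1% of all tested genes stood, 6 called by DESeq2, which called 9.14%, and 0 by limma-voom). The median was -0.71, and the values ran from -1.51 to -0.09. In 9 of the 13 the knockdown libraries lay below both controls, against 27.8% of all tested genes, and in 4 the groups overlapped. The smallest p belonged to TACC3, KIF11, TPX2 and AURKA. TACC3, which crosslinks spindle microtubules, had 301 and 181 CPM in control cells and 86.5 and 92.3 CPM in knockdown cells (a log2 fold change of -1.43 ± 0.25, SE). KIF11, the kinesin that pushes spindle poles apart, had a log2 fold change of -1.43, TPX2, which nucleates microtubules and activates Aurora A, -1.39, and AURKA, Aurora A itself, -1.32. The median was -0.39 without control replicate 1 and -1.07 without knockdown replicate 2.

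Around the synthases, 12 genes that supply the UDP-sugars were all tested, and 0 were called by the edgeR quasi-likelihood test. In that test 2 had an unadjusted p below 0.05, against 22.1% of all tested genes. DESeq2 called 2, against 9.14% of all tested genes, and limma-voom called 0. The median log2 fold change was -0.14, with 7 below 0 and 5 above. HK2, the hexokinase that starts glucose use in many tumours, had 122 and 115 CPM in control cells and 48.3 and 70.0 CPM in knockdown cells (a log2 fold change of -1.002 ± 0.21, SE, adjusted p = 0.0620). GFPT2, one of the 2 enzymes that open the hexosamine pathway, had 7.001 and 11.8 CPM in control cells and 20.9 and 33.8 CPM in knockdown cells (1.55 ± 0.34, adjusted p = 0.0659). The pair thus lay on opposite sides of 0, and neither passed. GNPNAT1, a later enzyme of that pathway, had -0.37, and UGDH, which makes UDP-glucuronic acid, had 0.32. The median turned to 0.12 without control replicate 2 and to 0.06 without knockdown replicate 1.

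Of 8 other genes of hyaluronan breakdown 6 were tested and 0 were called by the edgeR quasi-likelihood test. Their median log2 fold change was 0.05. In that test 1 had an unadjusted p below 0.05, against 22.1% of all tested genes. DESeq2 called 0, against 9.14% of all tested genes, and limma-voom called 0. HEXA, a lysosomal hexosaminidase, had 38.6 and 40.4 CPM in control cells and 60.1 and 51.2 CPM in knockdown cells. GUSB, the lysosomal beta-glucuronidase, had 66.2 and 69.8 CPM against 60.3 and 56.5 CPM. The sperm enzyme SPAM1 and HYAL4 had 0 counts everywhere. HEXA shares exons with other genes, so its counts are uncertain.

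Of 6 other hyaluronan receptors, LYVE1, STAB2 and LAYN had 0 counts in all libraries and TLR4 had 2 counts in 1 of them. STAB1, a scavenger receptor for hyaluronan on sinusoidal endothelium and macrophages, had 1 and 5 counts in control cells and 43 and 38 counts in knockdown cells. TLR2, an innate immune receptor that can respond to hyaluronan fragments, had 16 and 15 counts in control cells and 23 and 91 counts in knockdown cells. Both lay above the controls in both knockdown libraries (27.1% of all tested genes did), at low counts, and neither passed (edgeR quasi-likelihood test, adjusted p = 0.0646 and 0.173). Both had an unadjusted p below 0.05 in that test, against 22.1% of all tested genes. DESeq2 called 1 of them, against 9.14% of all tested genes, and limma-voom 0. STAB1 passed the filter on low counts only through the knockdown libraries, where it was high. Nothing is therefore read from its place above the controls or from its p-values. STAB1 shares 111 bases of exon with NT5DC2 on the opposite strand, and TLR2 was high mainly in knockdown replicate 2. The endothelial markers summed to 0.356 to 0.679 CPM in control cells and 1.82 to 2.23 CPM in knockdown cells, and CD14, the monocyte marker that keratinocytes can also express, had 1.21 and 0.356 CPM in control cells and 10.6 and 2.02 CPM in knockdown cells; their part in these values was not tested.

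Of 18 genes listed under hyaluronan-binding matrix proteins only VCAN, HAPLN3 and HABP4 were tested, and 0 were called by the edgeR quasi-likelihood test. In that test 2 had an unadjusted p below 0.05, against 22.1% of all tested genes. DESeq2 called 1, against 9.14% of all tested genes, and limma-voom called 0. VCAN, the proteoglycan versican, had 26.4 CPM in control replicate 1 and 10.8 to 13.8 CPM in the other libraries. HAPLN3, a link protein that ties proteoglycans to hyaluronan, had 5.86 and 8.31 CPM in control cells and 11.9 and 16.2 CPM in knockdown cells (a log2 fold change of 1.00 ± 0.30, SE, adjusted p = 0.118). HABP4, an RNA-binding and not a matrix protein, named for its binding of hyaluronan, had 14.1 and 20.001 CPM against 24.7 and 27.4 CPM. TNFAIP6, which loads heavy chains onto hyaluronan, had 0 counts everywhere, and the ITIH genes of those chains had at most 2 counts in a library.

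Of 17 CD44 linkers, sheddases and partners 13 were tested and 0 were called by the edgeR quasi-likelihood test. Their median log2 fold change was 0.09. In that test 4 had an unadjusted p below 0.05, against 22.1% of all tested genes. DESeq2 called 1, against 9.14% of all tested genes, and limma-voom called 0. The ERM proteins EZR, MSN and RDX, which tie CD44 to actin, had -0.03, -0.14 and -0.29, and the sheddases ADAM10 and ADAM17 had 0.09 and 0.31. MMP14, a membrane protease that also sheds CD44, had 291 and 364 CPM in control cells and 564 and 465 CPM in knockdown cells (0.65 ± 0.19, SE, adjusted p = 0.114). IQGAP1, a scaffold of the cell cortex, had -0.39, and ANK1, an ankyrin at 0.890 to 3.55 CPM, had 1.51.

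Of 14 regulators of CD44 splicing all were tested, 13 had a log2 fold change below 0 and 0 were called (edgeR quasi-likelihood test; 11 at an unadjusted p below 0.05, against 22.1% of all tested genes, 6 called by DESeq2, against 9.14%, and 0 by limma-voom). In 12 of the 14 the knockdown libraries lay below both controls, against 27.8% of all tested genes, and the median log2 fold change was -0.59. ESRP1 and ESRP2, the epithelial factors that keep the variable exons of CD44 in, had 260 and 211 CPM against 159 and 167 CPM, and 89.2 and 74.5 CPM against 51.4 and 44.4 CPM. HNRNPA1 had 1434 and 1485 CPM in control cells and 744 and 753 CPM in knockdown cells (-0.96 ± 0.18, SE, adjusted p = 0.0534), and SRSF1 and TRA2B had -1.07 and -0.72. HNRNPA1 has near-identical copies, and SRSF1 and ESRP2 share exons with other genes, so these counts are uncertain.

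Of 8 growth factor and retinoid genes that bear on hyaluronan synthesis in keratinocytes, 0 were called by the edgeR quasi-likelihood test. Their median log2 fold change was 0.38. In that test 2 had an unadjusted p below 0.05, against 22.1% of all tested genes. DESeq2 called 1, against 9.14% of all tested genes, and limma-voom called 0. The receptor EGFR had 353 and 484 CPM in control cells and 569 and 521 CPM in knockdown cells. CRABP2, the cellular retinoic acid binding protein, had 13.1 and 8.01 CPM against 29.04 and 16.4 CPM, and the retinoic acid receptor RARG 84.9 and 78.1 CPM against 111 and 102 CPM. TGFB1 had 50.1 and 107 CPM in control cells and 110 and 136 CPM in knockdown cells. Leaving out control replicate 1 gave a list median of 0.18, and leaving out control replicate 2 gave 0.73. Over the 8 lists other than mitosis, 71 of 96 genes were tested and 0 were called (smallest adjusted p = 0.0519, edgeR quasi-likelihood test). In that test 32 had an unadjusted p below 0.05, against 22.1% of all tested genes. DESeq2 called 18, against 9.14% of all tested genes. The 71 and the 32 include STAB1, which passed the filter on low counts only through the knockdown libraries, so no result is read from these totals.

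**Figure D5:**
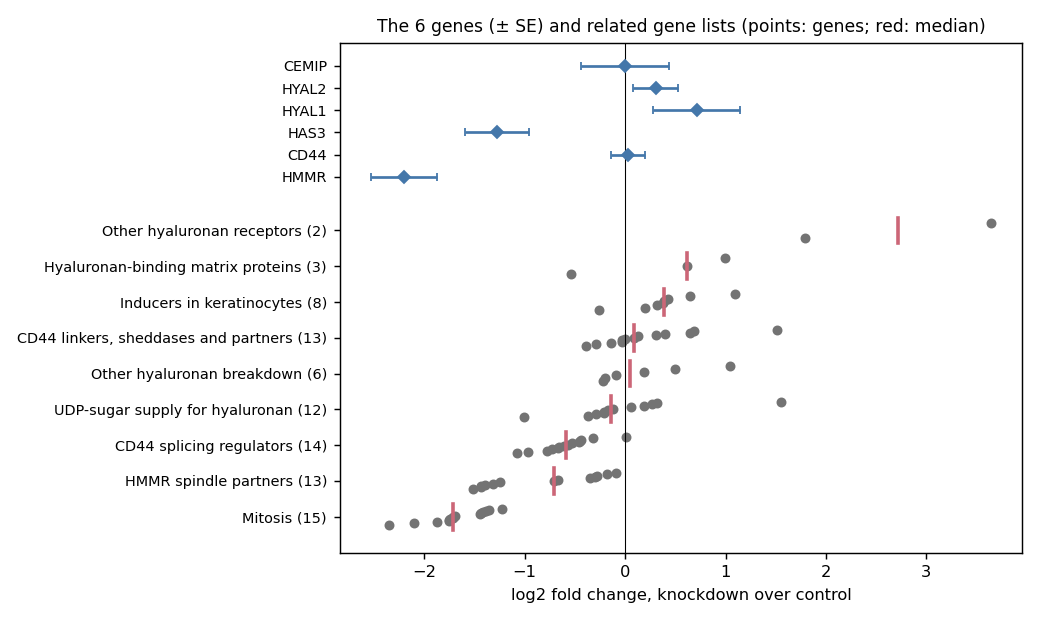
Log2 fold change, knockdown over control, of the 6 counted hyaluronan genes (diamonds, with SE) and of the tested genes of 9 related lists (grey points, with the number tested in brackets and the median in red). HMMR, at -2.20, lies with the mitosis list, whose median is -1.71. The points of the other hyaluronan receptors include STAB1, which passed the filter on low counts only through the knockdown libraries. CD44 is at 0.03, with the median of other hyaluronan breakdown at 0.05 and that of its linkers at 0.09.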

How the data were processed

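The values are raw counts as deposited by the authors, 1 column per library, for 60617 Ensembl genes. HISAT2, edgeR and GRCh38 are named in the submitters' processing notes; counting program, annotation release and strand setting: not given in the sources used here. Groups and replicate numbers came from the sample titles. Library totals were 27898889 and 17649090 (controls) and 19928788 and 23177056 (knockdown). Replicates differed by more than sampling noise (chi-square over its degrees of freedom 54.3 for the controls and 48.1 for the knockdown).

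From the counts, edgeR 4.0.16 (R 4.3.3) gave TMM-scaled CPM and the quasi-likelihood test over all genes that passed filterByExpr (minimum count 10), with Benjamini-Hochberg adjustment at 0.05. SE are those of the fit. Alternatives were RLE size factors, no filter, DESeq2 1.42.0, limma-voom 3.58.1, a replicate block, each library left out, and, chosen after seeing the data, a GC correction. Intervals and floors (3 counts) cover counting error only. Positions, exon lengths and overlaps came from GENCODE v29 (GRCh38), where HK2, IDUA, VCAN, HYAL3, GNPNAT1, UGDH, HABP4, ANK1, EZR, ADAM10, ADAM17, EGFR, TGFB1, ZNF384, GLT8D1 and MED24 also share exons with another gene and have uncertain counts, and promoter sequences from RefSeq (GRCh38.p14).

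The 8 genes and the 9 lists were chosen with earlier results of these data known. Genes named beside the 8 were CELF2, genes with overlapping exons, list members past the threshold or otherwise up to 4 with the smallest p, and the 5 genes with the pattern nearest to HMMR and to CD44. HYAL3, ESRP1, RDX, EZR, MSN, ADAM10, ADAM17 and the genes given with 0 to 2 counts per library were named outside this rule, after their values were seen, as were the ratios between genes and the set of motifs. One gene that the rule names is not reported here.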

Additional observations from a re-analysis of the deposited data

How the results depend on the processing

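The number of called genes depended strongly on the processing: 133 (92 higher, 41 lower) became 207 (76 lower) with RLE size factors, 2139 (1343 higher, 796 lower) with no filter, 1386 (772 and 614) with DESeq2, 334 (165 and 169) after the GC correction and 0 (0 and 0) with limma-voom, where the smallest adjusted p was 0.0558 and 3402 genes had an unadjusted p below 0.05. Of the called genes 69.2% were higher, against 55.7% with DESeq2 and 49.4% after the GC correction. With the replicate block 1579 genes were called (952 higher, 627 lower); the replicate numbers share only a number (correlation of same-numbered deviations 0.200, 2 pairs), so this is no pairing by design. With 1 library left out the calls ranged from 0 (without control replicate 1, smallest adjusted p 0.0955; 1724 genes below an unadjusted 0.05) to 616 (without control replicate 2), with 0 to 346 higher and 0 to 270 lower; without knockdown replicate 1 there were 365 and without knockdown replicate 2 there were 7.

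The log2 fold change ranged, with 1 library left out, from -2.56 to -1.70 for HMMR, -1.60 to -0.84 for HAS3, 0.0048 to 0.058 for CD44, 0.033 to 1.18 for HYAL1, 0.096 to 0.51 for HYAL2 and -0.36 to 0.29 for CEMIP. After the GC correction CD44 had 0.067 and HMMR -1.96. A lone library is assumed to vary like the other group. The cause of these changes was not tested.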
